A study of Homo sapiens with 12 samples.

Results

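Cultures of HDLM-2, a human cell line established from Hodgkin lymphoma, were compared after 24 hours with givinostat and sorafenib together or with neither drug. The comparison takes 6 of the 12 bead arrays of the series: 3 of the combination (100 nM givinostat with 5 µM sorafenib) and 3 of control, called A, B and C in each group. It covers the 10529 named genes that were above background on 3 of 3 arrays of at least 1 group. The other 6 arrays, 3 with 100 nM givinostat alone and 3 with 5 µM sorafenib alone, shared the fit and show where both drugs together differed from each drug. All groups are this 1 line in the same medium, and the labels name no vehicle for control. They do not say whether arrays A, B and C came from separate cultures, so the p-values measure no more than how the arrays of a group vary.

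Givinostat inhibits histone deacetylases, the enzymes that take acetyl groups off histones and other proteins; blocking them opens chromatin at many silent genes and slows the cell cycle in many lines. Sorafenib inhibits RAF kinases, which drive the MEK-ERK cascade, and several receptor tyrosine kinases. Hodgkin Reed-Sternberg cells, which HDLM-2 stands for, carry the receptor CD30 on their surface and rely on constant NF-kappaB and JAK-STAT signalling.

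The arrays of both groups were alike in brightness, with a mean raw intensity of 1345.8 to 1462.1 units for the combination and 1442.9 to 1629.7 for control. More probes were above background on the combination arrays (17457 to 17934) than on the control arrays (16927 to 17187), without overlap. All 6 Reed-Sternberg cell markers were above background on 3 of 3 arrays of both groups, while of 7 B cell markers MS4A1 and EBF1 were so on 3 of 3 arrays of both groups, CD79A and POU2AF1 on 1 array of each, and PAX5, CD79B and CD22 on 0. Of 10 T cell markers CD2 was above background on 3 of 3 arrays of both groups, LCK on 2 of each and CD28 on 1 combination array. The other 7, among them CD3D, CD3E, CD4 and CD8A, were so on none of these 6. Summed normalized intensity of the T cell markers was 11800 to 13600 in control and 14000 to 15400 in the combination, and that of 7 erythroid markers was 368 to 427 and 862 to 1030. The B cell markers summed to 600 to 771 and 795 to 869, and those of fibroblast and endothelium to 524 to 553 and 634 to 757. Sums were lower in the combination for the Reed-Sternberg markers, 84500 to 92100 in control and 77900 to 78900, and for epithelium, 3430 to 4000 and 2310 to 2380. Single genes weigh heavily in these linear sums. Mean log2 intensity in control and the combination was 13.61 and 13.77 for CD2 and 11.77 and 11.02 for the epithelial marker CDH1. It was 5.95 and 8.78 for the erythroid marker HBD and 5.87 and 7.64 for the fibroblast marker COL1A1. The part of these markers in the results was not tested. Array C of sorafenib alone stood apart from its group (mean correlation 0.989, others 0.991 to 0.994), and it enters this comparison through the normalization, the choice of detected probes and the shared estimate of the spread.

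Expression changed widely with both drugs together. Of the 10529 genes, 4357 passed limma's moderated test at an adjusted p under 0.05 (41.4%), 2201 of them higher in the combination (20.9%) and 2156 lower (20.5%). The 20.9% and 20.5% are the shares to set beside each list count below. Changes of at least 2-fold were fewer, 638 genes (6.06%), and of these 448 were higher (4.25%) and 190 lower (1.8%). The median change of all genes was -0.02 on the log2 scale and the median standard error (SE) was 0.13. Of the called genes, 4253 had 3 and 3 arrays that did not overlap. That largely follows from passing the test and is not added support, and the share over all genes is not given here. Under median scaling in place of quantile normalization 1503 of the called genes were higher and 2287 lower, a share higher of 39.7% against 50.5%. Without background subtraction, which narrows the folds of dim genes, 218 genes changed at least 2-fold.

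Large rises were mostly in dim genes. With genes split into 4 equal bins by their mean level, those at least 2-fold higher numbered 214, 124, 79 and 31 from the dimmest to the brightest bin, and those at least 2-fold lower numbered 74, 61, 37 and 18. Detection differed as well: 170 of the 10529 genes were above background on 3 of 3 combination arrays and 0 of 3 control arrays, and 147 of them passed the test. The reverse held for 27 genes, of which 21 passed. Genes silent in control entered the test only through treated arrays. The lowest detected log2 signal was also lower on the combination arrays (6.102 to 6.172) than on the control arrays (6.215 to 6.26). These counts are therefore not separate support.

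**Figure D1:**
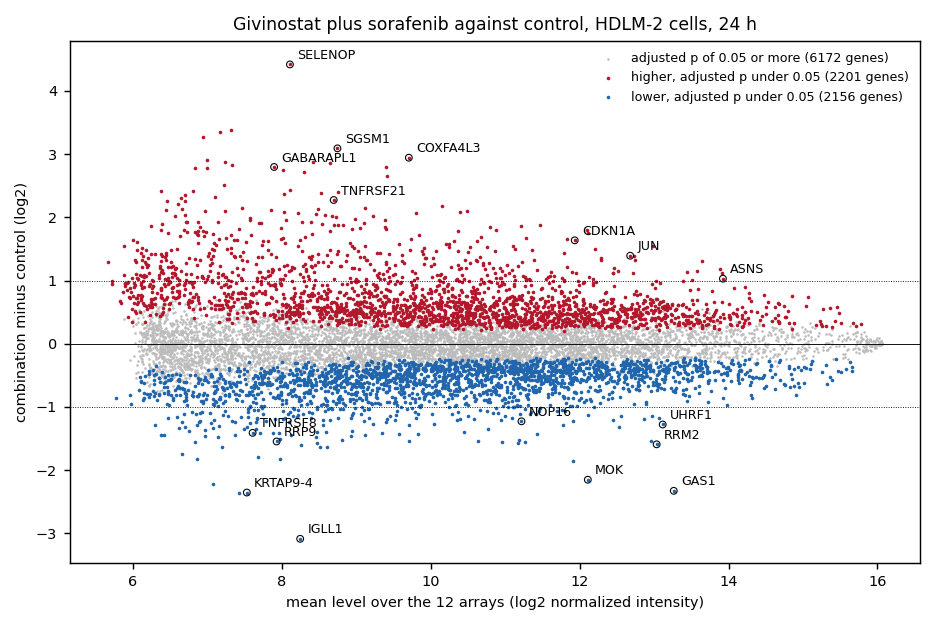
Each point is a gene, with its mean log2 normalized intensity over the 12 arrays on the horizontal axis and its log2 change, combination minus control, on the vertical axis. Red and blue points are the 2201 genes higher and the 2156 lower at an adjusted p under 0.05, and dotted lines mark a 2-fold change.

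SELENOP on chromosome 5, which encodes the plasma protein that carries selenium between tissues, rose the most. Its log2 intensities were 5.66, 5.98 and 5.61 on the control arrays and 10.10, 10.15 and 10.26 on the combination arrays. The groups lay far apart, and as no control array was above background the difference is given as at least 15.2-fold (a log2 difference of 4.42 ± 0.16 SE with n = 3 and 3 arrays, limma adjusted p = 1.69e-08). Without background subtraction the log2 change was 2.56.

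Other genes silent in control appeared with the combination. CRIP2, a LIM domain protein gene, read 5.38, 5.78 and 5.93 in control and 8.48, 8.69 and 8.65 in the combination, at least 5.15-fold higher. The delta globin gene HBD read 6.07, 5.76 and 6.01 against 8.80, 8.64 and 8.90, at least 5.80-fold higher. Neither gene was above background on any control array, and both were so on every combination array. AKR1C3, which encodes a reductase of steroids and prostaglandins, was likewise above background on 0 of 3 control arrays and at least 3.75-fold higher. The zinc finger genes ZNF365 and ZNF467 were at least 6.56-fold and 4.41-fold higher, ANKRD22 at least 5.38-fold, and the non-coding genes LINC03024 and LOC101927822 at least 6.16-fold and 5.25-fold.

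Among genes already measurable in control, SGSM1 rose by 3.09 ± 0.11 and COXFA4L3 by 2.94 ± 0.12 on the log2 scale. Dimmer probes of COXFA4L3 rose by 2.304 and 1.325. SLC44A2, which encodes a choline transporter-like protein, rose by 2.87 ± 0.16. CHI3L2, a chitinase-like protein gene, read 7.05, 6.93 and 7.13 in control and 10.09, 9.94 and 9.65 in the combination, a rise of 2.86 ± 0.15. TMEM158, known as a gene induced by activated RAS, rose by 2.80 ± 0.12 (adjusted p = 4.52e-08). All 5 genes had 3 combination arrays above 3 control arrays by more than the spread within either group, though lack of overlap was a condition of their naming.

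IGLL1, the surrogate immunoglobulin light chain gene known from early B cells, fell the most. It read 9.80, 10.21 and 9.86 on the control arrays and 6.44, 7.05 and 7.11 on the combination arrays and fell by 3.09 ± 0.17 on the log2 scale (adjusted p = 1.68e-07). AGMAT, which encodes an agmatinase family enzyme, read 8.48, 9.0 and 8.55 against 6.39, 6.44 and 6.12 and fell by 2.36 ± 0.21. GAS1 is a growth arrest gene and among the brightest here: 14.39, 14.44 and 14.74 against 12.23, 12.21 and 12.14 and fell by 2.33 ± 0.13. In all 3 genes the groups were separate, which the naming rule required. The kinase gene MOK fell by 2.15 ± 0.10, CYB5D1 by 1.83 ± 0.14, and EMILIN1, an extracellular matrix gene, by 1.80 ± 0.18. PRKAR1B, a regulatory subunit gene of protein kinase A, was above background on 0 of 3 combination arrays and at least 2.99-fold lower. FAM20C, a secretory pathway kinase gene, fell by 1.64 ± 0.12 at its brightest probe, while another of its probes did not pass the test. PROB1, the HSP70 nucleotide exchange factor gene HSPBP1 and the tRNA-modifying enzyme gene QTRT1 fell by 1.63 ± 0.16, 1.63 ± 0.15 and 1.61 ± 0.28.

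Keratin-associated protein genes, known for hair fibre and clustered on chromosome 17, were among the largest falls. Of 8 tested, 5 fell and 0 rose, with a median of -1.12, beside 20.5% and 20.9% of all genes. This list too was drawn up with earlier results of these data known, so its count is not independent support. KRTAP9-4 read 8.59, 8.62 and 8.66 in control and 6.07, 6.64 and 6.09 in the combination, and it fell by 2.36 ± 0.19 on the log2 scale. KRTAP9-3 fell by 2.23 ± 0.24, KRTAP17-1 by 1.86 ± 0.09 and KRTAP4-1 by 0.49 ± 0.13. For KRTAP9-8, not above background on any combination array, the fall was at least 2.73-fold. KRTAP9-8 met the detection filter only through other groups, so the filter itself favoured a fall. KRTAP1-5 (-0.16 ± 0.20), KRTAP3-1 (0.68 ± 0.31) and KRTAP10-11 (0.03 ± 0.20) did not pass. The KRTAP9 genes are near-identical copies, so their probes may read each other's RNA and cannot be counted as separate genes with certainty. Transcript and probe sequences were not compared. The promoters of KRTAP9-3 and KRTAP9-4 are alike too and are printed with that of SELENOP, which moved the other way. Each promoter is the 120 bases before the start of the gene, 5′ to 3′ on the gene's strand, from RefSeq on GRCh38.p14. The TATA box is in capitals. SELENOP lies at chr5:42811893-42812012 on the minus strand, KRTAP9-3 at chr17:41232329-41232448 and KRTAP9-4 at chr17:41249567-41249686, both on the plus strand.
SELENOP: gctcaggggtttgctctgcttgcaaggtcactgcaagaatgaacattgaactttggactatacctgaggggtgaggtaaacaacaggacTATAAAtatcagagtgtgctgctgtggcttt
KRTAP9-3: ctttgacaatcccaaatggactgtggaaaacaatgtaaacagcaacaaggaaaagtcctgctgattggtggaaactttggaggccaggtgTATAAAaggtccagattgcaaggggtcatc
KRTAP9-4: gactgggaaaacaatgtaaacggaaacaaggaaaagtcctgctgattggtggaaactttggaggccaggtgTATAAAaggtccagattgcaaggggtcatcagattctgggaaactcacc
Shifted by 19 bases, the KRTAP9 windows had 94 of 101 bases in common (93.1%). The letters TATAAA, on either strand of the 250 bases before the start, were in 85.7% of the 7 keratin-associated protein promoters held and in 5.78% of the 8661 promoters of all genes tested. Among promoters of genes at least 2-fold higher they were in 6.78%, and among those at least 2-fold lower in 10.2%.

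**Figure D2:**
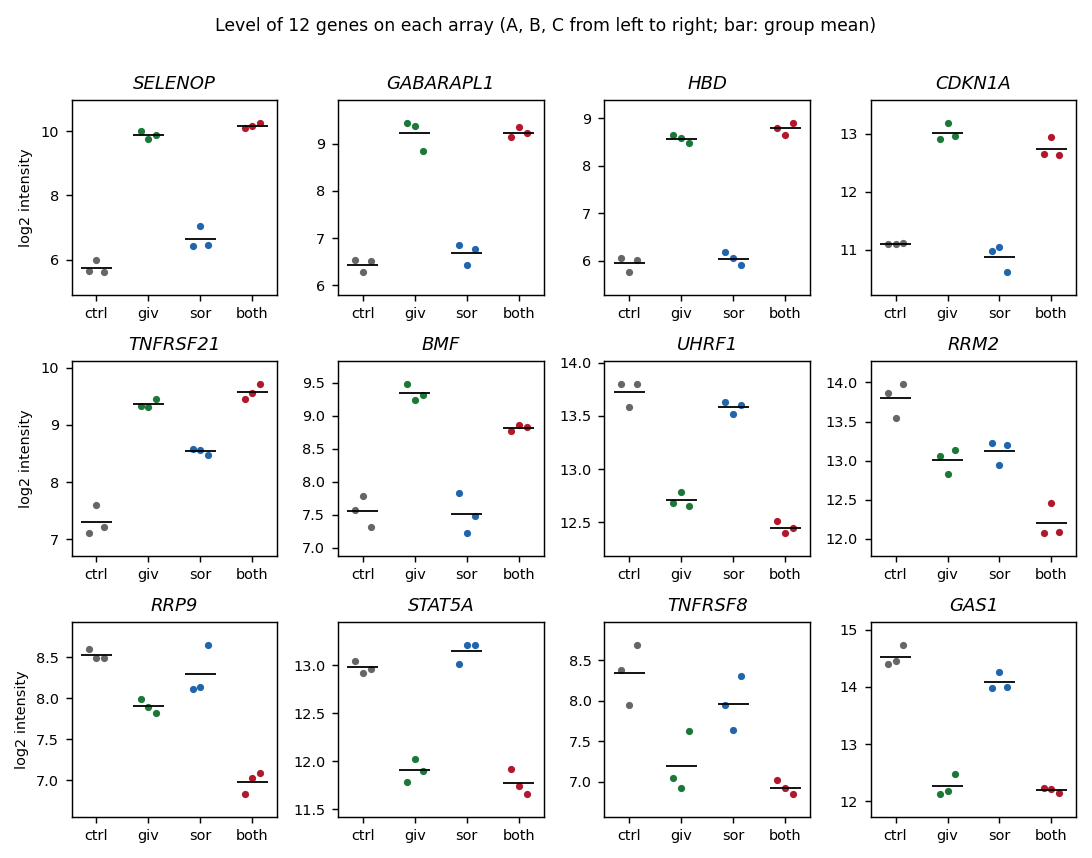
The log2 normalized intensity of 12 genes is plotted for each array, with the 3 arrays A, B and C of control, givinostat, sorafenib and both drugs from left to right and a bar at each group mean. The combination arrays lie above all control arrays for SELENOP, GABARAPL1, HBD, CDKN1A, TNFRSF21 and BMF, and below them for the other 6 genes.

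Genes of growth fell together. Of 40 ribosome biogenesis and MYC target genes tested, 35 fell and 1 rose, with a median of -0.72, beside 20.5% of all genes lower and a median of -0.02. RRP9, which encodes a component of the U3 particle that processes ribosomal RNA, read 8.61, 8.50 and 8.49 in control and 6.83, 7.03 and 7.09 in the combination, and it fell by 1.55 ± 0.14 on the log2 scale. NOP16, a nucleolar protein gene, fell by 1.23 ± 0.10, PPAN, another, by 1.28 ± 0.12, and TFB2M, which encodes a mitochondrial transcription factor, by 1.06 ± 0.10. MYC itself read 13.50, 13.37 and 13.57 against 13.20, 13.06 and 13.09 and fell by 0.36 ± 0.11 (adjusted p = 0.0189). That call did not hold with the mean of its probes (-0.20, adjusted p = 0.0942), without control array A or C (adjusted p = 0.0529 and 0.0664) or without combination array B or C (adjusted p = 0.0613 and 0.0558). In bulk RNA, fewer cells of a kind and less RNA per cell cannot be told apart.

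Mitochondrial ribosomal protein genes moved the same way, 36 of 53 lower and 0 higher with a median of -0.41. MRPL46, MRPS7, MRPS15 and MRPL9 fell by 0.88 ± 0.11, 0.82 ± 0.10, 0.73 ± 0.09 and 0.81 ± 0.10. Of the cytosolic ribosomal protein genes 2 of 48 fell and 3 rose, with a median of 0.01, beside 20.5% and 20.9% of all genes. RPS21 was 1 of those that fell, by 0.84 ± 0.12.

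DNA replication genes fell as widely. Of 46 tested G1/S genes, 36 fell and 0 rose, with a median of -0.56. UHRF1, which keeps DNA methylation through replication, read 13.80, 13.59 and 13.80 in control and 12.51, 12.39 and 12.44 in the combination, and it fell by 1.28 ± 0.09. RRM2, the regulatory subunit of ribonucleotide reductase, read 13.87, 13.55 and 13.98 against 12.07, 12.46 and 12.09 and fell by 1.59 ± 0.15. The groups did not overlap in either gene. The replicative helicase genes CDC45 and MCM5 fell by 0.96 ± 0.09 and 1.09 ± 0.11.

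Mitosis genes did not share that pattern. Of 38 G2/M genes, 6 were lower and 4 higher, with a median of 0.06. CCNA2, the cyclin A gene, fell by 0.51 ± 0.11 and the kinesin gene KIF2C by 0.32 ± 0.08, while the kinetochore motor gene CENPE rose by 0.48 ± 0.11. The CENPE call was lost under median scaling (0.32, adjusted p = 0.0776), under which 0 of the 38 genes rose. The list gave 2, 1 and 2 rises without control array B, combination array A and combination array C, and 2 and 3 falls without control array A and combination array A. BUB1, a spindle checkpoint kinase gene, was at 0.35 ± 0.10 (adjusted p = 0.0156) and was lost under median scaling (0.18, adjusted p = 0.298), without control array B (0.26, adjusted p = 0.0672) and without combination array A (0.28, adjusted p = 0.0673). MKI67, the proliferation antigen gene, was at -0.09 ± 0.19 (adjusted p = 0.747).

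Of the cyclin-dependent kinase inhibitor genes, 4 of 6 tested rose and 0 fell. CDKN1A, which encodes p21, read 11.10, 11.11 and 11.11 in control and 12.65, 12.94 and 12.63 in the combination, a rise of 1.64 ± 0.13 on the log2 scale or 3.11-fold (adjusted p = 2.61e-06). CDKN2B, which encodes p15, rose by 1.41 ± 0.14 and CDKN2D by 1.01 ± 0.11. CDKN3 rose by 0.62 ± 0.15, a call lost under median scaling (0.42, adjusted p = 0.111). CDKN1B was at 0.14 ± 0.11 and did not pass.

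Promoters of some fallen growth genes hold letters known from E2F or ETS factors. Shown are CDC25A and POLE, a cell cycle phosphatase and a replicative polymerase gene that fell by 1.15 ± 0.14 and 0.74 ± 0.10, with the E2F-type letters TTTGGCGC (or their complement) in capitals, and NOP16 and the ribosome assembly gene TSR1, which fell by 1.01 ± 0.11, with the ETS core CCGGAAG in capitals; in NOP16 a match on each strand overlap. Each is the 100 bases before the start, 5′ to 3′ on the gene's strand, from RefSeq on GRCh38.p14. All 4 genes lie on minus strands: CDC25A at chr3:48188418-48188517, POLE at chr12:132687343-132687442, NOP16 at chr5:176388599-176388698 and TSR1 at chr17:2336458-2336557.
CDC25A: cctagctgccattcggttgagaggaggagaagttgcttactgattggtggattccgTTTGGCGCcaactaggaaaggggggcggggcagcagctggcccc
POLE: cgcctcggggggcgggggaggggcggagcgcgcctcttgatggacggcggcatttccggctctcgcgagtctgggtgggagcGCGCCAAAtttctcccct
NOP16: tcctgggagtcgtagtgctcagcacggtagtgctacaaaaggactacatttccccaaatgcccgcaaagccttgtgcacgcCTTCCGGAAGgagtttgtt
TSR1: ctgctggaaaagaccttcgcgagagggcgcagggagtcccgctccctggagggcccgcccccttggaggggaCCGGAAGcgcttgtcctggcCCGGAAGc
Over 250 bases and both strands, TTTGGCGC was in 12.2% of 41 G1/S promoters, in 0 of 33 ribosome biogenesis promoters and in 0.889% of all 8661. The ETS core was in 36.4% of the ribosome biogenesis promoters, in 14.6% of the G1/S promoters and in 16.3% of all. It was in 21.7% of proteasome and 20.8% of mitochondrial ribosomal protein promoters, lists that also fell. Lists that did not fall as a whole held it too. It was in 40.0% of cytosolic aminoacyl-tRNA synthetase promoters (median change 0.035) and 27.5% of cytosolic ribosomal protein promoters (median change 0.01). Among called genes, 10.1% of 1785 promoters of genes that rose held it, 3.95% of the 354 that rose at least 2-fold, and 21.6% of the 1785 of genes that fell. Among the 147 that fell at least 2-fold it was 14.3%, under the share of all genes. For all risen against all fallen genes the order was the same in each of the 4 level bins, from 7.71% of risen against 20.2% of fallen genes in the dimmest bin to 12.1% against 22.9% in the brightest. Median GC content was close in all 3 sets, at 64.8% for genes at least 2-fold higher, 64.0% for genes that fell and 64.4% for all. A match is a description of these letters and not a binding site.

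Protein-quality genes fell with growth genes. Of 27 proteasome genes, 26 fell and 0 rose, and the falls were small, with a median of -0.44. PSMC6, an ATPase subunit gene, read 13.70, 13.86 and 13.66 in control and 13.21, 13.20 and 13.22 in the combination, and it fell by 0.53 ± 0.08. PSMB6, a catalytic core subunit gene, fell by 0.70 ± 0.12, and PSMA1 and PSMA6 by 0.50 ± 0.08 and 0.54 ± 0.09. The 3 immunoproteasome genes PSMB8, PSMB9 and PSMB10 fell by 0.65 ± 0.11, 0.63 ± 0.10 and 1.15 ± 0.10; another probe of PSMB9 did not pass.

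Of 28 cytosolic heat shock and chaperonin genes, 15 fell and 3 rose (median -0.33). The HSP70 family gene HSPA8 read 15.67, 15.62 and 15.62 against 14.86, 15.11 and 15.03 and fell by 0.63 ± 0.10, its partner DNAJA1 by 0.69 ± 0.10, the HSP110 gene HSPH1 by 0.58 ± 0.09 and the chaperonin subunit gene CCT4 by 0.86 ± 0.10. Chaperones of the endoplasmic reticulum gave 3 rises and 4 falls in 22 genes: CRELD2 rose by 0.67 ± 0.13 and HSPA5, which encodes BiP, fell by 0.40 ± 0.10. The falls numbered 1 without control array A or C or combination array C, and 2 without combination array A.

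Lysosomal genes rose, 16 of 29 higher and 1 lower, with a median of 0.33. TPP1, a lysosomal peptidase gene, read 10.72, 10.61 and 10.62 in control and 11.45, 11.63 and 11.60 in the combination and rose by 0.91 ± 0.09. The acid lipase gene LIPA, the beta-galactosidase gene GLB1 and the cholesterol carrier gene NPC2 rose by 0.85 ± 0.10, 0.83 ± 0.10 and 0.77 ± 0.11. Under median scaling 9 of the 29 were higher. CACGTG, the core of the element read by the lysosomal regulator TFEB, was in 31.6% of 19 lysosomal promoters and 8.90% of all. Among called genes it was in 7.45% of promoters of genes that rose and in 10.9% of those that fell. It was also in 12.1% of the ribosome biogenesis and MYC target promoters, a list that fell. Its part in the lysosomal rises was not tested.

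Of the autophagy genes as a whole 6 of 30 were higher and 3 lower, beside 20.9% and 20.5% of all genes. The 4 genes of the list with the smallest p are named here, among them members of the ATG8 family, which coat forming autophagosomes. The other genes of the list are not printed. GABARAPL1 read 6.53, 6.28 and 6.51 against 9.14, 9.35 and 9.22, a rise of 2.80 ± 0.16 or 6.95-fold (adjusted p = 2.07e-07). MAP1LC3A and MAP1LC3B, which encode LC3 proteins, rose by 1.33 ± 0.10 and 1.00 ± 0.09, and the phosphoinositide-binding gene WIPI1 by 0.84 ± 0.11. The combination arrays were above the control arrays in all 4. Without background subtraction the change of GABARAPL1 was 1.53.

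**Figure D3:**
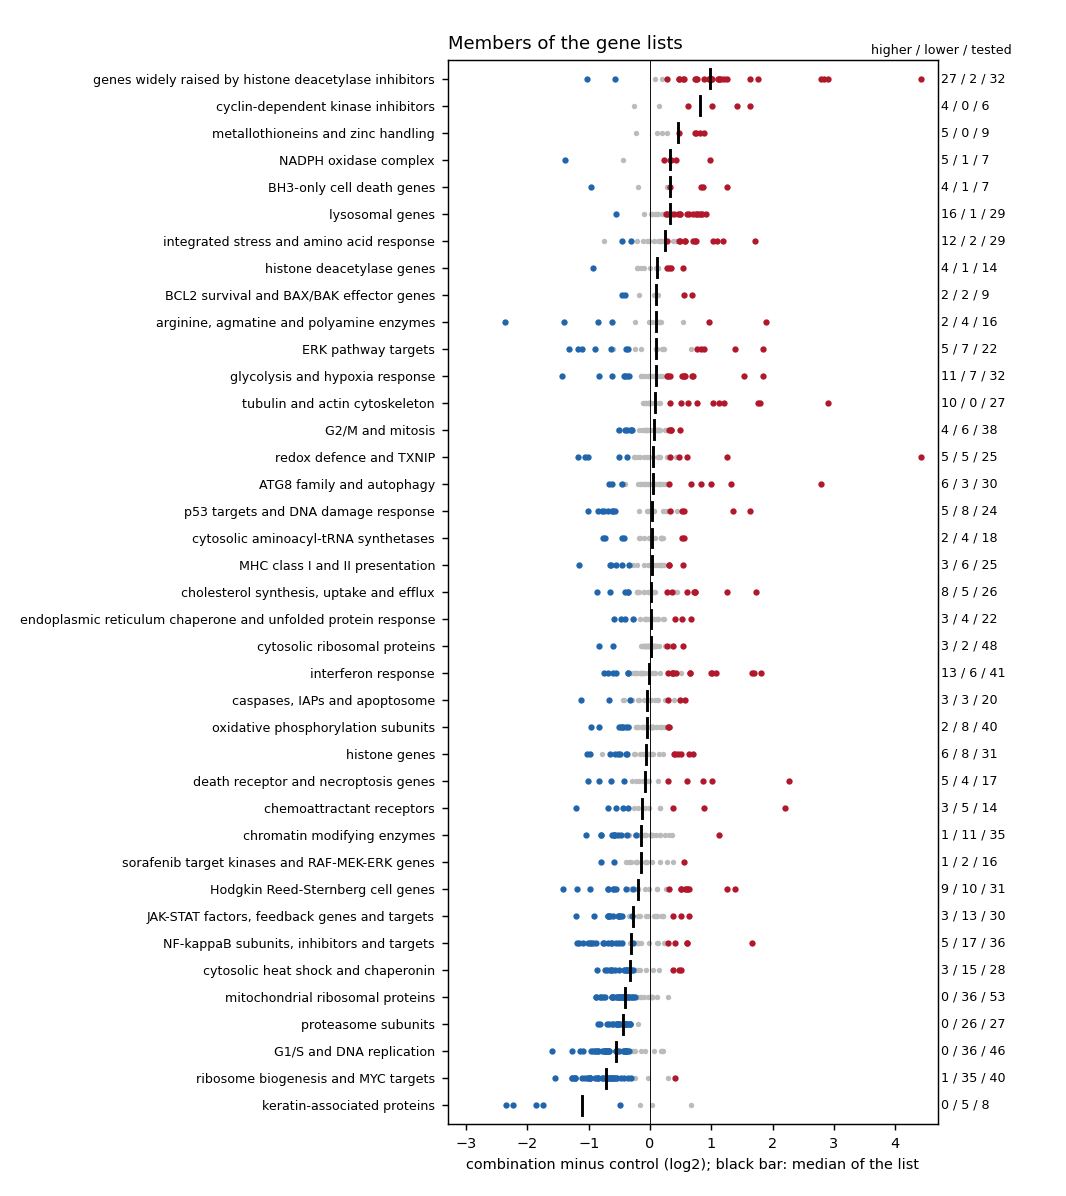
Each row is a gene list and each point a tested member, placed by its log2 change, combination minus control; red and blue points passed the test, grey points did not, and the black bar is the median of the list. Figures at the right give the members higher, lower and tested; ribosome biogenesis, G1/S, proteasome and mitochondrial ribosomal protein genes lie to the left, and genes known to rise with histone deacetylase inhibitors to the right.

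The list of genes that deacetylase inhibitors raise in many lines was drawn up with earlier results of these data known. Its count is therefore not independent support, and members silent in control, such as HBD and CRIP2, entered the test only through treated arrays. Of 32 tested, 27 rose and 2 fell, with a median of 0.98, beside 20.9% and 20.5% of all genes. Beside SELENOP, HBD, CRIP2, GABARAPL1 and CDKN1A they include GSN, the actin-severing gelsolin gene, above background on 0 of 3 control arrays and at least 2.44-fold higher. The 2 that fell are the histone genes H2BC21 and H2BC12, by 1.02 ± 0.15 and 0.56. Among 31 histone genes tested 6 rose and 8 fell: H1-10 rose by 0.70 ± 0.11, and H2AC18 and H3C10 fell by 0.98 ± 0.12 and 0.65 ± 0.13. The rises were 3 under median scaling, without control array A or without combination array C, and histone probes may read close copies.

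Of the deacetylase genes themselves, 4 of 14 were higher and 1 lower. HDAC6, a cytoplasmic deacetylase of tubulin, read 9.51, 9.51 and 9.42 in control and 10.15, 9.99 and 9.92 in the combination and rose by 0.54 ± 0.09, and SIRT7, a nucleolar sirtuin gene, fell by 0.93 ± 0.21. HDAC1 was at -0.14 ± 0.10 and did not pass. HDAC2 (0.34 ± 0.12, adjusted p = 0.0361) and HDAC3 (0.28 ± 0.09, adjusted p = 0.0277) passed by little. Under median scaling they were at 0.15 and 0.11 (adjusted p = 0.352 and 0.582), and without control array A their adjusted p was 0.116 and 0.0701. HDAC2 was also lost without control array B (adjusted p = 0.0724) or combination array B or C (0.0688 and 0.126), and HDAC3 without control array C (0.102), without combination array A or C (0.0952 and 0.0687) or in a fit of the 2 groups alone (0.0513). Neither passed without the detection filter (adjusted p = 0.07 and 0.0608). The list's rises came to 1 under median scaling, without control array A or without combination array C, and to 2 without control array B or combination array B.

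Of 10 globin genes on the arrays 4 were tested and all 4 were higher, beside 20.9% of all genes. HBD, HBG1 and HBG2 met the detection filter only in groups with givinostat, so the filter itself favoured rises. HBG2, a fetal globin gene, was above background on 0 of 3 control arrays and at least 1.74-fold higher, and HBG1 rose by 0.97 ± 0.25; these copies are near-identical and their probes may read both. HBB, AHSP, ALAS2 and EPB42, which define red cell precursors with them, were above background on 0 of 6 arrays. Metallothioneins, small zinc-binding proteins, gave 5 rises in 9 genes of zinc handling and 0 falls. MT2A read 14.54, 14.74 and 14.48 against 15.17, 15.48 and 15.32 and rose by 0.74 ± 0.10, MT1X by 0.89 ± 0.14, MT1H by 0.82 ± 0.14 and MT1G by 0.74 ± 0.14. MTF1, the zinc sensor gene, was at -0.22 ± 0.14 and did not pass; metallothionein probes may read several copies.

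Cytoskeletal genes gave 10 rises and 0 falls in 27. TPM1, a tropomyosin gene, read 9.28, 9.33 and 9.36 in control and 11.21, 10.96 and 11.17 in the combination, a rise of 1.79 ± 0.11, and DPYSL3 rose by 1.12 ± 0.11.

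NF-kappaB genes were lower on balance, 17 of 36 down and 5 up, with a median of -0.31. RELB, a subunit of the non-canonical pathway, read 11.60, 11.60 and 11.53 in control and 10.47, 10.54 and 10.26 in the combination, and it fell by 1.15 ± 0.09. The inhibitor gene NFKBIE and the cytokine gene LTA, itself a target, fell by 1.01 ± 0.12 and 1.20 ± 0.11. CXCL10, a chemokine gene that interferon also drives, went the other way: 10.43, 10.75 and 10.66 against 12.29, 12.37 and 12.18, a rise of 1.67 ± 0.12. The count of rises was 1 under median scaling, and 3 without control array B, without combination array A or without combination array B.

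JAK-STAT genes gave 13 falls and 3 rises in 30, with a median of -0.28. STAT5A, a transcription factor below cytokine receptors, read 13.05, 12.92 and 12.96 against 11.92, 11.74 and 11.66 and fell by 1.20 ± 0.10. STAT6 fell by 0.65 ± 0.09, the repressor gene BCL6 by 0.92 ± 0.09, and IL2RA, the interleukin 2 receptor alpha gene, by 0.69 ± 0.09.

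Genes typical of Reed-Sternberg cells split, with 9 of 31 higher (5 under median scaling) and 10 lower. TNFRSF8, which encodes CD30, read 8.38, 7.95 and 8.69 in control and 7.02, 6.93 and 6.85 in the combination, and it fell by 1.41 ± 0.22 or 2.66-fold (adjusted p = 0.000359). FSCN1, the actin-bundling fascin gene, rose by 0.50 ± 0.12. CCL17, the chemokine TARC, was at -0.02 ± 0.10 and FUT4, which makes the CD15 antigen, at -0.08 ± 0.14, and neither passed. The transcription factor genes JUN and MAF rose by 1.39 ± 0.13 and 1.26 ± 0.14.

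The interferon response list gave 13 rises and 6 falls in 41 genes, and a median of -0.01. RSAD2, the antiviral viperin gene, read 6.57, 6.46 and 6.48 in control and 8.15, 8.46 and 8.33 in the combination and rose by 1.81 ± 0.13. IFI27 and OAS1 rose by 1.70 ± 0.16 and 1.01 ± 0.10. Under median scaling 8 of the 41 were higher. Antigen presentation genes gave 3 rises and 6 falls in 25, led by the immunoproteasome genes above, and HLA-DOA, a modulator of class II loading, rose by 0.53 ± 0.11.

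Chemoattractant receptors gave 3 rises and 5 falls in 14. CCR2, a monocyte chemokine receptor gene, was above background on 0 of 3 control and 3 of 3 combination arrays and was at least 2.85-fold higher. LTB4R, a leukotriene receptor gene, fell by 1.21 ± 0.16 and CXCR4 by 0.68 ± 0.11. The falls numbered 3 without control array B or C, or combination array B or C. Of 8 monocyte markers 2 were above background on 3 of 3 control arrays and 4 on 3 of 3 combination arrays, with a summed intensity of 1290 to 1440 and 1400 to 1610; its part in the CCR2 value was not tested.

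Targets of the ERK pathway, which sorafenib acts on, did not move one way: 5 of 22 rose and 7 fell (4 without control array A or without combination array B), with a median of 0.10. Of all genes 20.9% rose and 20.5% fell. DUSP5, a nuclear ERK phosphatase gene, read 13.18, 13.23 and 13.10 in control and 11.95, 11.66 and 11.94 in the combination, and it fell by 1.32 ± 0.11. EPHA4, an ephrin receptor gene, fell by 1.12 ± 0.10. PHLDA1 read 9.63, 9.97 and 10.00 against 11.72, 11.71 and 11.71 and rose by 1.84 ± 0.13. FOS and EGR1, immediate early genes, did not pass: FOS was at -0.60 ± 0.27 (adjusted p = 0.0919, and 0.011 without combination array A) and EGR1 at 0.21 ± 0.20 (adjusted p = 0.421). Of 16 kinase and cascade genes, 1 rose and 2 fell: MAPK3, which encodes ERK1, rose by 0.56 ± 0.12 (lost under median scaling, adjusted p = 0.0587) and the scaffold gene KSR1 fell by 0.80 ± 0.10.

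The amino acid stress response was raised in part. Of 29 genes tested, 12 rose and 2 fell, with a median of 0.25. VLDLR, a lipoprotein receptor gene that this response induces, read 8.93, 8.90 and 8.92 in control and 10.55, 10.66 and 10.69 in the combination, a rise of 1.71 ± 0.10. ASNS, which encodes asparagine synthetase, read 13.45, 13.21 and 13.36 against 14.34, 14.35 and 14.41 and rose by 1.03 ± 0.09. CTH, a cysteine synthesis gene, rose by 1.20 ± 0.11, the serine synthesis gene PSAT1 by 0.57 ± 0.08 and DDIT3, which encodes the stress factor CHOP, by 0.73 ± 0.15. Of 18 cytosolic aminoacyl-tRNA synthetase genes, 2 rose and 4 fell: SARS1 and AARS1 rose by 0.56 ± 0.10 and 0.52 ± 0.10, the latter lost under median scaling (0.33, adjusted p = 0.103), and KARS1 and FARSA fell by 0.77 ± 0.10 and 0.74 ± 0.15. The promoter of ASNS is shown because its ATF4 site is a textbook case; it is the 120 bases before the start on the minus strand, chr7:97872409-97872528 of GRCh38.p14, from RefSeq, with the letters that match TGATGNAAN in capitals.
ASNS: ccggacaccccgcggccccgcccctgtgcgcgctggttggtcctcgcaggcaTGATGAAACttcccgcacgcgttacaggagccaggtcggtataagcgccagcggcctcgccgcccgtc
Those letters were in 12.5% of 24 promoters of the list, in 13.3% of 15 synthetase promoters and in 1.66% of all.

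Cell death genes moved in both directions. Of 7 BH3-only genes, which switch on the mitochondrial path of apoptosis, 4 rose and 1 fell. BMF read 7.57, 7.79 and 7.32 in control and 8.77, 8.86 and 8.82 in the combination, a rise of 1.26 ± 0.15 or 2.40-fold. PMAIP1, which encodes NOXA, rose by 0.83 ± 0.12 and BNIP3L by 0.87 ± 0.09. BNIP3 was at 0.33 ± 0.10 (adjusted p = 0.0171), lost under median scaling (0.16, adjusted p = 0.407), without control array C (adjusted p = 0.05) and without combination array A or B (0.0685 and 0.0701). BID fell by 0.96 ± 0.11. BCL2L11, which encodes BIM, read 7.05, 7.15 and 7.41 against 7.53, 7.36 and 7.53: the arrays overlapped and the change of 0.27 ± 0.21 did not pass (adjusted p = 0.337). Against sorafenib alone, which had a mean of 6.54, it was 0.94 ± 0.21 higher (adjusted p = 0.00544).

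Of 9 BCL2 survival and effector genes, 2 rose and 2 fell, beside 20.9% and 20.5% of all genes. BCL2 rose by 0.55 ± 0.14 (lost under median scaling, 0.38, adjusted p = 0.0648), and BCL2L1, which encodes BCL-XL, and BCL2L13 fell by 0.46 ± 0.09 and 0.40 ± 0.09. BOK was at 0.68 ± 0.21 (adjusted p = 0.022), lost in a fit of the 2 groups alone (adjusted p = 0.06) and without combination array A or C (0.0539 and 0.0566). MCL1 and BAX were at 0.11 ± 0.11 and 0.06 ± 0.12, did not pass, and changed sign under median scaling (-0.06 and -0.09) and with the mean of their probes (-0.07 and -0.24). A dimmer probe of BAX passed as lower (-0.54, adjusted p = 0.0343 over all probes).

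Death receptor genes gave 5 rises and 4 falls in 17, and 3 rises under median scaling or without control array A or B or combination array A or C. TNFRSF21, which encodes death receptor 6, read 7.11, 7.59 and 7.21 in control and 9.46, 9.56 and 9.72 in the combination, a rise of 2.27 ± 0.12 or 4.84-fold. TNFSF10, the ligand TRAIL, rose by 1.01 ± 0.13 and TNFRSF1B, a TNF receptor gene, by 0.86 ± 0.17, while CFLAR, which blocks caspase 8, fell by 0.63 ± 0.10. The necroptosis genes RIPK3 and MLKL were at -0.22 ± 0.15 and -0.08 ± 0.10 and did not pass, and RIPK1 had no value here. Of 20 caspase and apoptosome genes 3 rose and 3 fell, beside 20.9% and 20.5% of all genes. APAF1, the apoptosome core gene, rose by 0.57 ± 0.13 (lost under median scaling, 0.46, adjusted p = 0.0553, and another of its probes did not pass), and the nuclease genes ENDOG and DFFB fell by 1.12 ± 0.14 and 0.67 ± 0.12.

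Redox genes gave 5 rises (3 under median scaling) and 5 falls in 25, near the 20.9% and 20.5% of all genes. TXNIP, which inhibits thioredoxin, read 9.38, 9.38 and 9.41 in control and 10.68, 10.68 and 10.59 in the combination and rose by 1.26 ± 0.16. KEAP1, the sensor that holds NRF2 down, fell by 1.02 ± 0.11. GSR, glutathione reductase, fell by 1.07 ± 0.13 at its brightest probe and not at the other (0.07). NADPH oxidase genes gave 5 rises and 1 fall in 7. NCF1, the p47 organiser gene, fell by 1.39 ± 0.15, and NOXA1, the activator of NOX1, was at 0.98 ± 0.28 (adjusted p = 0.0143), lost without control array A or B (0.0503 and 0.0617). Of these 7 genes 1 was higher under median scaling or without control array B, 2 without control array A and 3 without any single combination array.

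Metabolic genes moved in both directions. Of 32 glycolysis and hypoxia genes 11 rose (5 under median scaling, 7 without combination array B) and 7 fell: P4HA2, a collagen prolyl hydroxylase gene, rose by 1.53 ± 0.10 with 1 of its other probes not passing, and SLC2A1, the glucose transporter GLUT1, read 10.20, 10.44 and 10.28 against 9.0, 8.70 and 8.92 and fell by 1.43 ± 0.10. Of 26 cholesterol genes 8 rose and 5 fell (2 without control array A or combination array B or C, 3 without control array B): ABCA1, the cholesterol exporter gene, rose by 1.72 ± 0.21, TM7SF2 by 1.25 ± 0.09 and SREBF1 by 0.74 ± 0.10, and the fatty acid synthase gene FASN fell by 0.86 ± 0.12. Oxidative phosphorylation genes gave 8 falls (5 without combination array C) and 2 rises in 40, among them ATP5MC1, an ATP synthase subunit gene, which fell by 0.97 ± 0.15. In the polyamine list of 16 genes, 2 rose and 4 fell: SAT1, which breaks polyamines down, rose by 0.97 ± 0.09, and SRM, which makes spermidine, fell by 0.85 ± 0.10. Chromatin enzymes gave 11 falls and 1 rise in 35, among them PRMT5, an arginine methyltransferase gene, by 1.05 ± 0.13 and KAT2A, an acetyltransferase gene, by 0.80 ± 0.12. DNA damage genes gave 5 rises (3 under median scaling or without control array B) and 8 falls in 24; GADD45G rose by 1.36 ± 0.12, and EXO1 and CHEK1, a repair nuclease and a checkpoint kinase gene, fell by 0.79 ± 0.11 and 0.56 ± 0.08.

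Set against each drug alone, the combination differed from sorafenib in 3720 genes (35.3%) and from givinostat in 141 (1.34%), 89 of them higher and 52 lower. The combination arrays serve in all of these comparisons. At an unadjusted p under 0.05 the count against givinostat was 1800 genes. The adjusted count, 141 in the main fit, depended on the arrays and the processing, from 31 without givinostat array A to 359 with array weights. It was 67, 52, 58, 39 and 46 without givinostat array B or C and combination array A, B or C, and 227 without sorafenib array C. The large changes of SELENOP, GABARAPL1, HBD and CDKN1A were not among those 141: against givinostat they were at 0.29 ± 0.16, 0.01 ± 0.16, 0.21 ± 0.11 and -0.27 ± 0.13.

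Some genes were beyond both drugs alone. TMEM158 had mean log2 intensities of 9.95 with givinostat and 8.80 with sorafenib, and the combination read 10.83, 10.88 and 10.77, which is 0.88 ± 0.12 above givinostat (adjusted p = 0.00545) and 2.03 ± 0.12 above sorafenib. ULBP1, a stress ligand of natural killer cells, was 1.00 ± 0.13 above givinostat and 0.83 ± 0.13 above sorafenib, and rose by 1.62 ± 0.13 against control. SEPTIN4, whose ARTS product is a pro-apoptotic factor, was 0.93 ± 0.12 and 2.34 ± 0.12 above, and at least 3.03-fold above control. MTAP, a methionine salvage enzyme gene, and ATXN7L1 were at least 2.36-fold and 1.70-fold above control and above both drugs as well. In each of these genes the 3 combination arrays were higher than all other 9.

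In the other direction, RRM2 differed by -0.80 ± 0.15 from givinostat (adjusted p = 0.0222) and by -0.92 ± 0.15 from sorafenib, and RRP9 by -0.92 ± 0.14 and -1.32 ± 0.14. Against givinostat RRM2 was lost in a fit of the 2 groups alone (adjusted p = 0.0503), without givinostat array A or C (0.0954 and 0.0777) and without combination array A or C (0.0798 and 0.0903), and RRP9 without givinostat array A (0.052). KRTAP9-4 differed by -1.97 ± 0.19 from givinostat and by -0.72 ± 0.19 from sorafenib, the latter lost under median scaling (adjusted p = 0.0547). TIRAP, an adaptor gene of Toll-like receptors, the metastasis suppressor gene BRMS1 and CYP1B1, a cytochrome gene, were lower than with either drug and fell by 1.05 ± 0.10, 0.92 ± 0.13 and 0.89 ± 0.11 against control; of TIRAP's other probes 1 did not pass.

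Stress genes differed from both single drugs in part. Of the 29 amino acid stress genes 6 were higher than with givinostat and 0 lower, and 3 were higher and 8 lower than with sorafenib. ASNS had means of 13.68 with givinostat and 14.31 with sorafenib, and the combination was 0.69 ± 0.09 above the former (adjusted p = 0.00545) and 0.05 ± 0.09 above the latter (adjusted p = 0.701). CTH and DDIT3 were 0.85 ± 0.11 and 0.85 ± 0.15 above givinostat and PMAIP1 was 0.79 ± 0.12 above. The DDIT3 call was lost without givinostat array C (adjusted p = 0.0536) or combination array A, B or C (0.0603, 0.0753 and 0.0674), and the PMAIP1 call without givinostat array A (0.0537). PSAT1 lay between, 0.76 ± 0.08 above givinostat and -0.53 ± 0.08 from sorafenib.

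A few genes that did not pass against control with both drugs were far from control with givinostat. EGR1 had means of 9.35 with givinostat and 6.17 with sorafenib; the combination read 7.38, 7.29 and 7.11 and control 7.23, 7.19 and 6.72. From givinostat to the combination FOS differed by -2.37 ± 0.27 and EGR1 by -2.09 ± 0.20. GPR15, a homing receptor gene, was above background on 0 of 6 control and combination arrays, had a mean of 7.93 with givinostat and was at least 3.45-fold higher there than with both drugs. Apart from these, histone genes were lower than with givinostat in 7 of 31 and higher than with sorafenib in 11. H3C10, which fell against control with both drugs, differed by -1.07 ± 0.13 from givinostat.

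**Figure D4:**
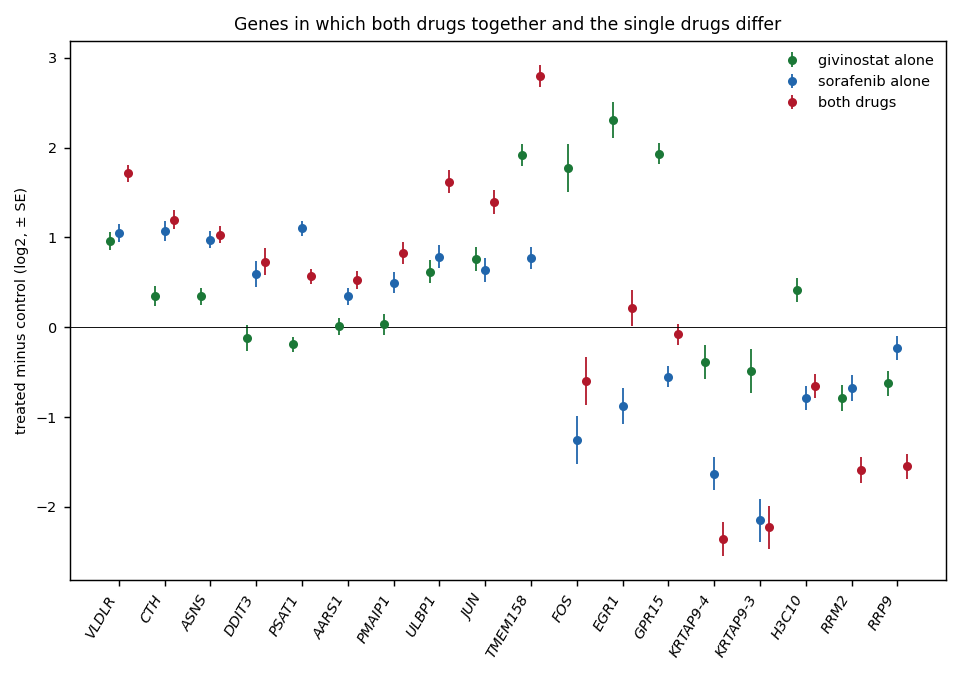
The log2 change against control is plotted for 18 genes after givinostat (green), sorafenib (blue) and both drugs (red), with bars of 1 SE from the fit; all 3 changes share the control arrays. VLDLR, ULBP1 and TMEM158 have their highest change with both drugs, RRM2 and RRP9 their lowest, and FOS, EGR1 and GPR15 are high with givinostat alone.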

How the data were processed

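Biotin-labelled cRNA from total RNA was hybridised to Illumina bead arrays, per the labels' protocols; BeadStudio was used, per the submitters' processing notes, its version not given in the sources used here. The deposited file holds, per the file headers, an intensity for each of 48803 probes and array, not normalized, beside a deposited detection fraction. The fraction rose with intensity (lowest Spearman correlation 0.992), so its complement served as the p-value for detection. The authors' second table, linear intensity after quantile normalization, was an alternative start.

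Intensities were background-corrected by normexp from the detection p-values (limma 3.58.1, R 4.3.3, offset 16), quantile normalized over the 12 arrays and put on the log2 scale. Probes with a detection p under 0.05 on all 3 arrays of a group were kept (16927), of which 14039 carry 1 gene symbol in the platform annotation; the brightest probe stood for a gene. The fit of 4 group means over 12 arrays had 8 residual and 4.01 prior degrees of freedom. Tests were limma's two-sided moderated test, Benjamini-Hochberg adjusted over 10529 genes, called under 0.05. "At least" folds use the lowest signal above background in place of a group with none. The fit was tested on simulated data. With 3 arrays per group, their number limits the precision.

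The comparison, the lists and the naming rule were chosen with earlier results of these data known. Genes were named as the 15 largest rises and falls, up to 4 members per list with the smallest p (any member of a list under 12), a few set genes (CDKN1A, TNFRSF8, MYC, the deacetylases, BCL2L11, FOS, EGR1 and others), genes beyond both drugs, and the 5 largest differences from each drug. The largest rises, falls and differences were taken only from called genes whose arrays did not overlap between the groups. CDC25A, POLE, TSR1, HBG1 and HBG2 were chosen after their values were seen. H2BC12 was too. Some genes that the rule covers are not printed. Promoters are RefSeq's on GRCh38.p14, found by Entrez identifier for 8661 of the genes. Alternatives were no background correction, median scaling, the authors' table, other detection filters, the mean of probes, a fit of the 2 groups, a replicate block, array weights and leaving out each array.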

Additional observations from a re-analysis of the deposited data

Results flagged for a closer look

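A signal lay in probes the comparison leaves out, those without a single gene symbol in the platform annotation. Of 2888 such probes above background on all arrays of a group, 83 were above background on 3 of 3 combination arrays and 0 of 3 control arrays, and 22 the other way round. In limma's test over all detected probes 864 of them passed (29.9%, beside 38.1% of the 14039 named probes), 485 higher and 379 lower with the combination. Their genes were not analysed here.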

How the results depend on the processing

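Calls against control kept their number within 1.5 times under every alternative run, from 3582 without combination array C to 4722 with array weights, and reached 4673 at most with 1 array left out. With the array letter as a replicate block 4430 genes changed; same-letter control and combination arrays correlated at 0.006, -0.035 and 0.115 in their deviations, so the letters were not taken as pairs. Genes changed at least 2-fold numbered 218 without background correction and 218 from the authors' table, where folds of dim genes are smaller. The count against givinostat was 306 without background correction, 306 from the authors' table, 88 under median scaling, 68 without the detection filter, 359 with array weights, 81 in a fit of the 2 groups and 31 to 227 when 1 array was left out. The cause was not tested. Of all called genes, 19 changed sign with the mean of probes, 1 without the detection filter and 1 without combination array B. Among the genes the text names, those that changed sign were uncalled. Under median scaling BAX, CDKN1B and MCL1 came to -0.087, -0.016 and -0.060, and with the mean of probes BAX and MCL1 to -0.238 and -0.065. With 1 array left out, BAX ranged from -0.030 to 0.213, CCL17 from -0.073 to 0.072, FUT4 from -0.214 to 0.010, GPR15 from -0.168 to 0.021, KRTAP1-5 from -0.400 to 0.027, KRTAP10-11 from -0.170 to 0.15 and MKI67 from -0.182 to 0.015. Against givinostat GABARAPL1 ranged from -0.172 to 0.124 and was at -0.042 with array weights, and against sorafenib ASNS ranged from -0.011 to 0.105. Filtering on all 12 arrays leaves fewer genes to test, and 0 globin genes. Slide as a block was not run, as the files name no slide. Signal near background limits the dimmest genes, where folds depend on the background step.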
